A study of Mus musculus with 15 samples.

Results

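Interferon-stimulated genes are genes whose transcription rises when a cell receives an interferon signal. The list described here held 40 such genes, chosen by name and grouped by what their products do. They were chosen with earlier results of these data known, so the counts set beside all genes below are descriptions only. A member was measured where a probe set of the array was annotated with that gene alone, and the brightest such probe set was used. By this rule 36 of the 40 members were measured, among 19296 genes in all. Isg15, Gbp2 and Igtp sit on probe sets annotated with several genes, and Ifi44 has no probe set of its own in the annotation, so these 4 were not analysed here.

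RNA from sorted mouse bone marrow cells was measured on 15 Affymetrix arrays, 3 of old haematopoietic stem cells (HSC), 5 of young HSC, 3 of old granulocyte/macrophage progenitors (GMP) and 4 of young GMP. All cells came from C57Bl/6 mice, aged 6 to 12 weeks (young) or 22 to 30 months (old), with no genetic change or treatment named in the labels. HSC were sorted as Lin-/cKit+/Sca1+/Flk2-/CD48-/CD150+ cells and GMP as Lin-/cKit+/Sca1-/FcγR+/CD34+ cells, and the RNA was amplified before hybridisation. No label states whether 1 mouse or a pool gave the cells of an array, so the tests measure the spread between arrays, which may be partly technical. In a bulk sample, fewer cells that express a gene and less RNA per cell cannot be told apart.

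Type I interferons bind the receptor made of Ifnar1 and Ifnar2, whose kinases phosphorylate Stat2. With Irf9 it forms part of a complex that binds the interferon-stimulated response element in the promoters of its targets. Interferon gamma acts through its own receptor, Ifngr1 and Ifngr2, and its target promoters carry the gamma-activated sequence. The induced genes encode sensors of foreign RNA, enzymes that cut, bind or modify viral RNA, ubiquitin-like modifiers and their ligases, and membrane-associated GTPases. Stem cells are known to hold some of these transcripts without infection, and interferon is known to bring dormant HSC into division.

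All values below are log2 expression levels or differences between them. Across the arrays the interquartile range, the spread of all values of an array, ran from 1.96 in old HSC replicate 2 to 2.69 in young HSC replicate 1, with means of 2.15 in old HSC, 2.51 in young HSC, 2.34 in old GMP and 2.42 in young GMP. Among the genes fixed as markers, 8 of 8 measured HSC identity genes were higher in HSC than in GMP at both ages, and 8 of 8 granulocyte progenitor genes were lower in young HSC and 7 of 8 in old HSC. Levels of Xist and of the Y-linked genes did not match the male label on every young array: Xist read from 4.72 to 11.5 over the young HSC arrays and from 5.49 to 10.9 over the young GMP arrays, against 5.46 to 5.84 over all old arrays. Several young arrays read high for Xist while the mean of their Y-linked genes stayed above that of replicate 4. The 2 values were 11.16 and 7.12 on young HSC replicate 2, 10.02 and 8.47 on replicate 3, and 10.26 and 8.42 on replicate 5. On young GMP they were 10.51 and 7.20 on replicate 2, and 8.92 and 8.28 on replicate 3. Replicate 4 read 11.51 and 4.94 in young HSC and 10.95 and 5.20 in young GMP. Replicate 1 read 4.72 and 8.80 in young HSC and 5.49 and 8.61 in young GMP. Over the old arrays the Y-linked mean ran from 8.45 to 8.80, above replicate 2 of both young groups. High Xist was read only on young arrays. Whether the young arrays of replicates 2, 3 and 5 held cells of both sexes was not tested. The part of sex in the age comparisons was not tested beyond the refit with the Y-linked level as a covariate.

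Averaged over the 36 members, HSC stood above GMP on every array. The member mean was 8.12, 7.92 and 8.34 on the old HSC arrays, 8.38, 8.42, 8.37, 8.24 and 8.33 on the young HSC arrays, 7.49, 7.34 and 7.55 on the old GMP arrays, and 7.45, 7.54, 7.45 and 7.58 on the young GMP arrays. By group it averaged 8.13 ± 0.21 in old HSC (SD, 3 arrays), 8.35 ± 0.07 in young HSC (5 arrays), 7.46 ± 0.11 in old GMP (3 arrays) and 7.51 ± 0.07 in young GMP (4 arrays). The old and young HSC arrays overlapped, since old HSC replicate 3 reached 8.34. Old HSC was the group with the widest spread, and its arrays kept much the same order from gene to gene. Replicate 2 was the lowest of the 3 for 22 of 36 members and replicate 3 the highest for 26. In old GMP replicate 2 was the lowest for 20 and replicate 3 the highest for 20. The interquartile range of the old HSC arrays had the same order, with 1.96, 2.15 and 2.33 on replicates 2, 1 and 3. The order of the arrays over all genes is not given here, and the part of array spread in it was not tested.

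**Figure D1:**
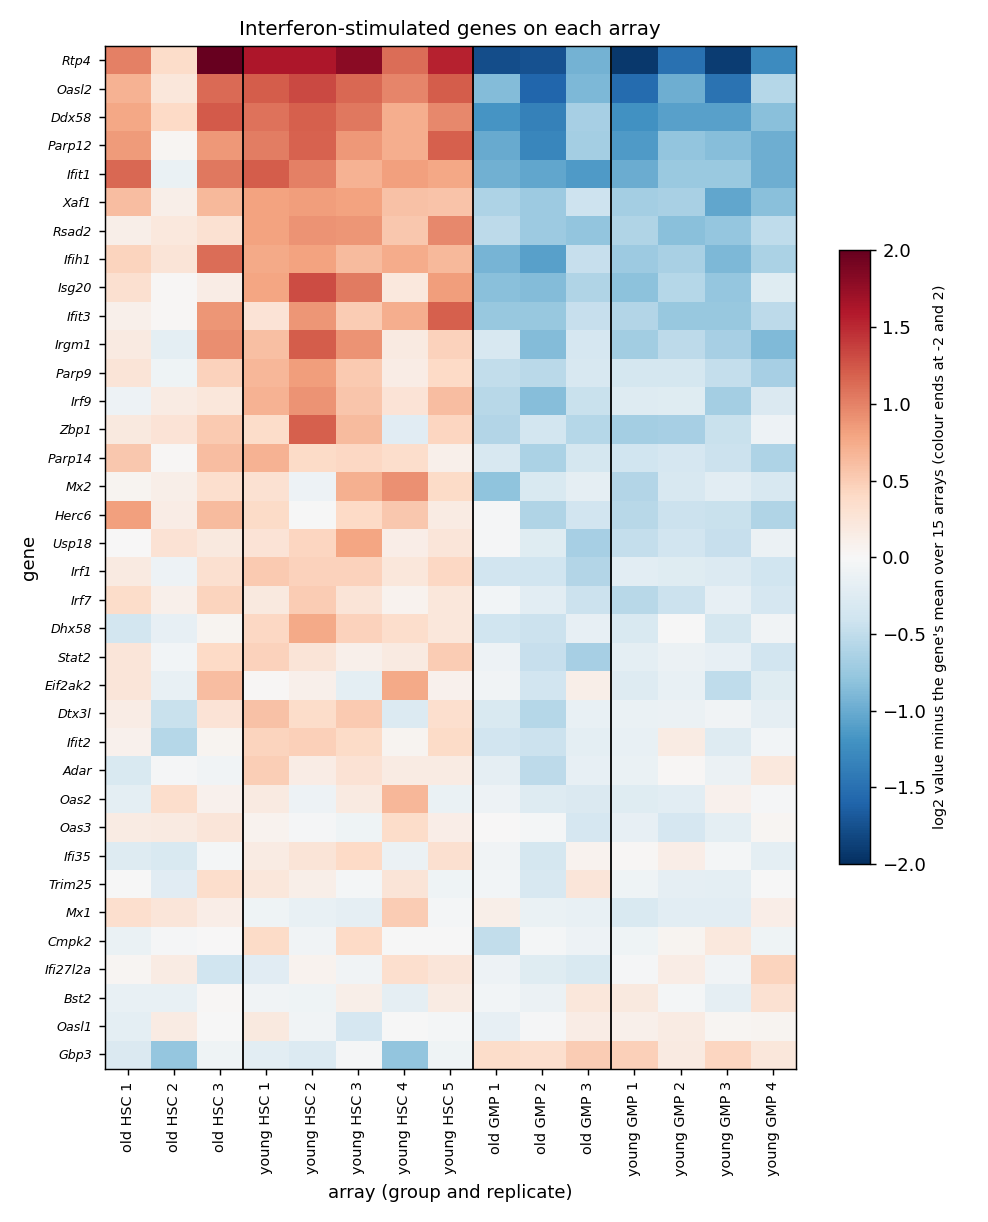
Heat map of the 36 measured interferon-stimulated genes (rows, ordered by the HSC minus GMP difference in young mice) on 15 arrays (columns), with colour for the log2 value minus the gene's mean over all arrays. The upper rows are red in the HSC columns and blue in the GMP columns at both ages; the bottom row, Gbp3, runs the other way.

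**Figure D2:**
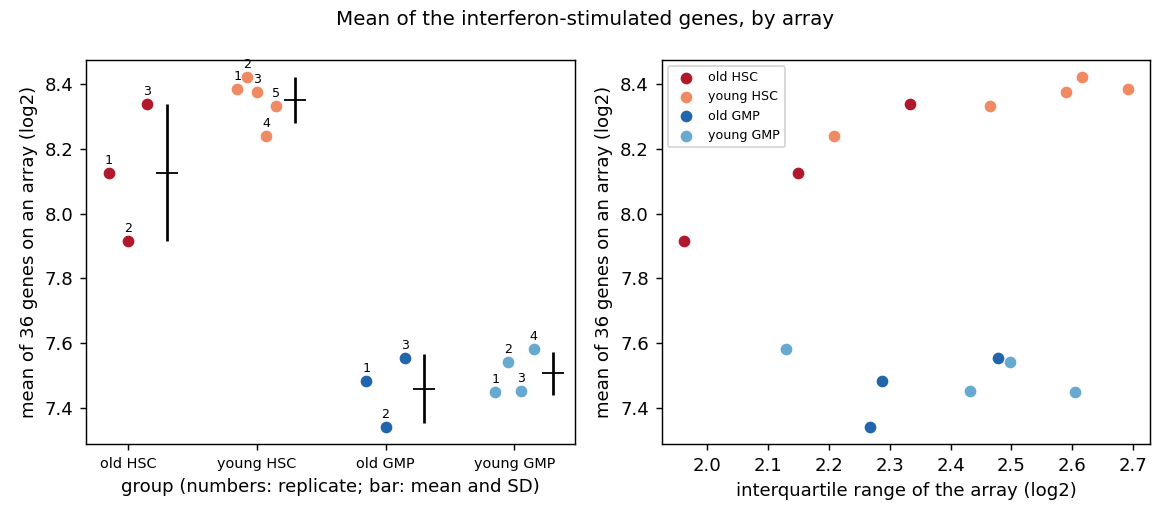
Left, mean log2 value of the 36 genes on each array by group, with replicate numbers and the group mean and SD as a bar. Right, the same mean against the interquartile range of the array. The HSC arrays lie between 7.92 and 8.42 and the GMP arrays between 7.34 and 7.58. The array with the smallest interquartile range has the lowest member mean of its group in old HSC (1.96), young HSC (2.21) and old GMP (2.27). In young GMP (2.13) it has the highest.

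The first comparison set HSC against GMP. In young mice 23 of 36 members were higher in HSC and 1 was lower, where 24.6% of all genes were called in either direction (13.6% higher, 10.9% lower; limma, adjusted p under 0.05 over all genes). Of the 23, 11 were more than 2-fold higher, against 3.7% of all genes. In old mice, measured on other arrays, 20 members were higher and 1 was lower, where 22.2% of all genes were called (9.25% higher, 13% lower), and 7 were more than 2-fold higher, against 2.96%. All 20 were also higher in young mice, so the overlap was 20 of the 23 young calls and 20 of the 20 old calls. The other 3 young calls were Dhx58, Ifit2 and Usp18. Both comparisons came from the same fit and share its spread for each gene, so the calls at the 2 ages are not independent. The overlap over all genes is not given here, so that of the members is a description only. The median difference over the members was 0.72 in young and 0.59 in old mice, beside -0.05 and 0.02 over all genes, and 32 members lay above 0 at each age, beside 41.3% and 54% of all genes. The HSC and GMP values did not overlap for 21 members higher in young HSC, against 11.7% of all genes, and for 23 higher in old HSC, against 16.3%. Gbp3 was apart in the other direction at both ages, as were 9.51% of all genes in young and 18.4% in old mice.

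The other 12 members were called in neither comparison. They were Eif2ak2, Dtx3l, Adar, Oas2, Oas3, Ifi35, Trim25, Mx1, Cmpk2, Ifi27l2a, Bst2 and Oasl1. Their differences ran from -0.14 (Oasl1) to 0.44 (Eif2ak2) in young mice and from -0.11 (Bst2) to 0.35 (Eif2ak2) in old mice. Of the 24 young calls, 23 were kept under every other setting that tested them, and Ifit2 was lost under 6 of 27, each time with 1 array left out (young HSC replicate 1, 2, 3 or 5, young GMP replicate 1 or 3). Of the 21 old calls, 16 were kept under every such setting. Irf7 and Stat2 were lost without old GMP replicate 3, Zbp1 without old HSC replicate 3 or old GMP replicate 3, and Irgm1 without old HSC replicate 3 or old GMP replicate 2. Mx2 was kept under 15 of 26. Ly6a, the gene of the Sca1 antigen that separates both gates, is itself interferon-induced. It had no probe set of its own by the rule and was not analysed here, and the part of the gate in these differences was not tested.

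**Figure D3:**
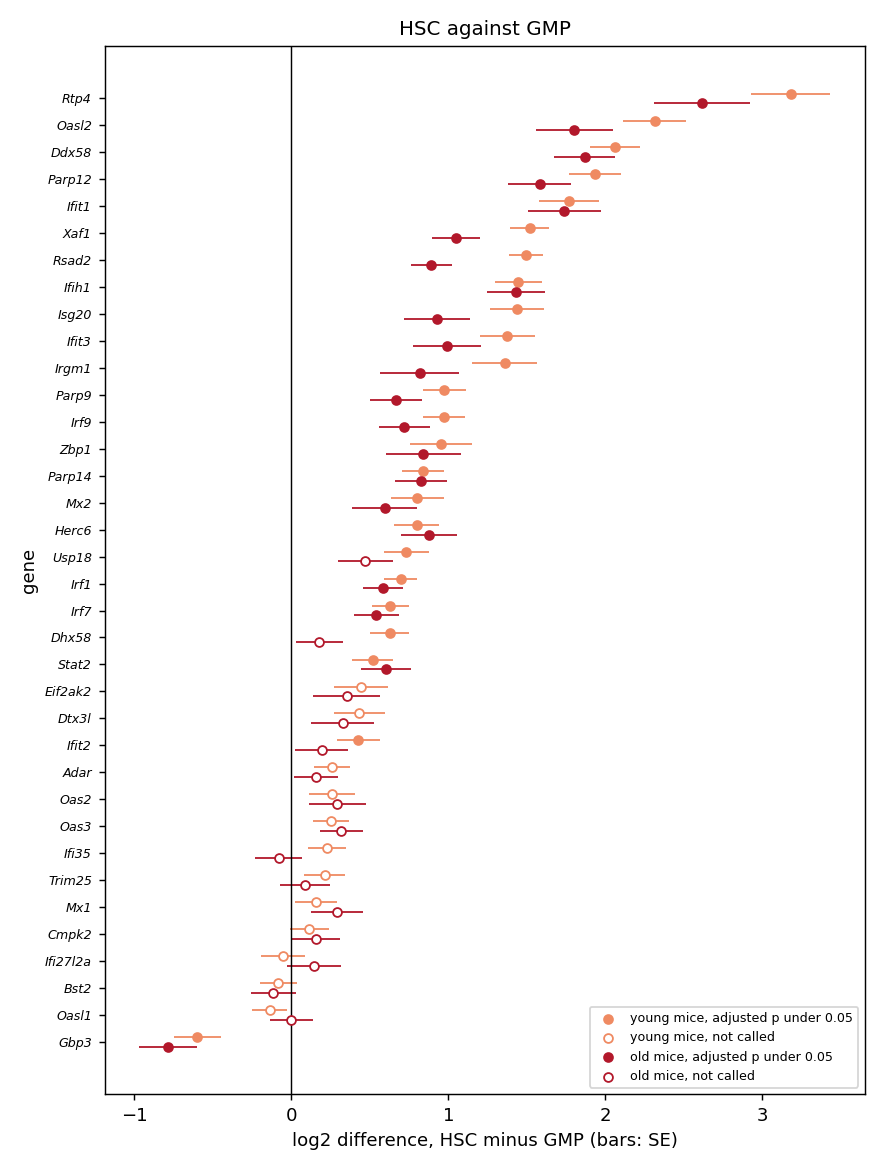
Log2 difference, HSC minus GMP, for each of the 36 genes (rows) in young and old mice, with the SE as a bar; filled points have a limma adjusted p under 0.05. Rtp4 lies farthest to the right at 3.18 in young and 2.61 in old mice, and Gbp3 is the only filled point left of 0, at -0.60 and -0.79.

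Sequences upstream of the starts are shown for members that differed strongly between HSC and GMP, for the member that went the other way, for 1 that was not called (Bst2) and for a transcription factor with the other motif (Irf1). Genes were picked for having a match there. Gbp3 and Irf1 each had 2 annotated starts, and the start with the most matches is shown. The other start of each held no match to the motif shown for that gene. Oasl2, Parp12, Xaf1 and Isg20, also among the largest differences, held no core of the response element in their promoters, and the match in Ddx58 lay after the start. No promoter was found for Rtp4, the member with the largest difference, nor for Dhx58, Ifi27l2a, Mx1, Mx2, Oas2, Parp9, Parp14, Usp18 or Zbp1. Each sequence gives the 160 bases before the annotated start on the gene's strand, 5′ to 3′, from RefSeq (GRCm38.p6). Capitals mark the core of the interferon-stimulated response element, GAAANNGAA, or its reverse complement where it lies on the opposite strand, and in Irf1 the gamma-activated sequence TTCNNNGAA. Matches that overlap run together in capitals.
Ifit1, chr19:34640729-34640888, plus strand: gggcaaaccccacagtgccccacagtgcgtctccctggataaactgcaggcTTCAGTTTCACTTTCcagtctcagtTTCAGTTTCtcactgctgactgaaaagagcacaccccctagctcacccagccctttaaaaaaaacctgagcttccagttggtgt
Ifit3, chr19:34583369-34583528, plus strand: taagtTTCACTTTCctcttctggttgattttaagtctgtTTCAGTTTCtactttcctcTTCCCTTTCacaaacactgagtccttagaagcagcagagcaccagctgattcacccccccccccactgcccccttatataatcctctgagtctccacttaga
Rsad2, chr12:26456453-26456612, minus strand: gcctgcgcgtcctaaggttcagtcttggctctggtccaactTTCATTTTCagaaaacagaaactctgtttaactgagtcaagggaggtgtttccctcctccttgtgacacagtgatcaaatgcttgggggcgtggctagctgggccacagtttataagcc
Ifih1, chr2:62646256-62646415, minus strand: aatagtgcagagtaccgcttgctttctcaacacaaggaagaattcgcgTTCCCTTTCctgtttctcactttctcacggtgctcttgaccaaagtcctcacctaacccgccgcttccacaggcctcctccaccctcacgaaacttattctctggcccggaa
Irgm1, chr11:48871421-48871580, minus strand: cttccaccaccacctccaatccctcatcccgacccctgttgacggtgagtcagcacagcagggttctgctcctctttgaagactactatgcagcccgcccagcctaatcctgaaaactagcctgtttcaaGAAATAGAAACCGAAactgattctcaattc
Gbp3, chr3:142559884-142560043, plus strand: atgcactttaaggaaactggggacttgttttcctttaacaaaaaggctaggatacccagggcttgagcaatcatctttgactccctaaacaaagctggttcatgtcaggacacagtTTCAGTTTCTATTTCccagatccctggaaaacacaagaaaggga
Bst2, chr8:71537473-71537632, minus strand: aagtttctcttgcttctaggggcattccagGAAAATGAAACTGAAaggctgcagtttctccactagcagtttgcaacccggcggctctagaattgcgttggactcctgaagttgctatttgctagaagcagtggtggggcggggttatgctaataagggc
Irf1, chr11:53769854-53770013, plus strand: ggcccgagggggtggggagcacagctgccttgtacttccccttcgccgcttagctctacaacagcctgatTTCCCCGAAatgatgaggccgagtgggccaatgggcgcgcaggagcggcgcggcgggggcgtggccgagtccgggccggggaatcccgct

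Ifit1 and Ifit3 each held 3 matches, the nearest to the start at 84 and 102 bases before it. Rsad2 held 1 match at 119 bases and Ifih1 1 at 112. Irgm1 held an overlapping pair at 30 and 24 bases, Gbp3 a pair at 44 and 38, and Bst2 a pair at 130 and 124. The Irf1 match to the gamma-activated sequence began 90 bases before the start. Promoters of 300 bases, 250 before and 50 after the start, were found for 26 of the 36 members. Of these genes, 13 (50%) held the response element core, beside 9.8% of the 27025 genes of the promoter table. The gamma-activated sequence was in 7 (26.9%), beside 9.6%. The core was in 7 of 16 members higher in young HSC (43.8%) and in 5 of 9 that were not called (55.6%), and in Gbp3. The motifs can overlap each other, and a match describes letters, not binding.

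All 4 transcription factors were higher in HSC at both ages. Irf9, the DNA-binding subunit of the complex that type I interferon activates, read 9.10, 9.31, 8.97, 8.68 and 9.03 on young HSC and 8.16, 8.18, 7.73 and 8.13 on young GMP arrays. On old arrays it read 8.32, 8.58 and 8.64 in HSC and 7.86, 7.56 and 7.97 in GMP. No HSC array reached down to a GMP array of the same age. The HSC minus GMP difference was 0.97 ± 0.13 log2 (SE, 1.96-fold, adjusted p = 1.574e-05) in young mice and 0.72 ± 0.16 log2 (SE, 1.65-fold, adjusted p = 0.00289) in old mice (limma). Stat2, its partner in that complex, was higher by 0.52 in young and 0.60 in old mice. Irf1, an activator that interferon gamma induces, was higher by 0.70 and 0.59, and Irf7, which drives interferon alpha genes, by 0.63 and 0.54 (limma, highest of these 8 adjusted p = 0.009156).

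Of 5 nucleic acid sensors, 4 were higher in young HSC and 3 in old HSC. Ddx58, which encodes the RNA helicase RIG-I, read 10.0004, 10.11, 9.96, 9.63 and 9.87 on young HSC arrays and 7.69, 7.83, 7.83 and 8.07 on young GMP arrays. The old HSC arrays read 9.69, 9.31 and 10.14 and the old GMP arrays 7.73, 7.56 and 8.25. Every HSC array lay above every GMP array. Its level in HSC exceeded that in GMP by 2.06 ± 0.16 log2 (SE, 4.17-fold, adjusted p = 7.499e-09) in young mice and 1.87 ± 0.19 log2 (SE, 3.65-fold, adjusted p = 7.001e-07) in old mice (limma). Ifih1, which encodes the related sensor MDA5 of long double-stranded RNA, read 9.79, 9.84, 9.67, 9.77 and 9.67 in young HSC and 8.30, 8.39, 8.13 and 8.39 in young GMP. Old HSC read 9.47, 9.28 and 10.14 and old GMP 8.10, 7.94 and 8.57. The groups were again apart at both ages. Its level in HSC exceeded that in GMP by 1.45 ± 0.15 log2 (SE, 2.72-fold, adjusted p = 4.672e-07) in young mice and 1.43 ± 0.18 log2 (SE, 2.69-fold, adjusted p = 9.099e-06) in old mice (limma).

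Dhx58 encodes LGP2, the regulatory member of the same helicase family, and was called between HSC and GMP in young but not in old mice. It read 7.74, 8.08, 7.78, 7.67 and 7.54 in young HSC and 7.01, 7.32, 6.96 and 7.25 in young GMP. In old mice it read 6.96, 7.15 and 7.38 in HSC and 6.92, 6.89 and 7.15 in GMP, where the groups overlapped. The HSC minus GMP difference was 0.63 ± 0.12 log2 (SE, 1.54-fold, adjusted p = 0.0007217) in young mice and 0.18 ± 0.15 log2 (SE, 1.13-fold, adjusted p = 0.5077) in old mice (limma). The test of the difference between these differences gave an adjusted p of 0.4244 (limma), so the ages were not shown to differ. Zbp1, a sensor of left-handed nucleic acid helices, was higher by 0.95 and 0.84, and Eif2ak2, the kinase PKR that halts translation on double-stranded RNA, differed by 0.44 and 0.35 without passing the test.

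The RNA-directed effectors divided: 6 of 11 were higher in young HSC and 5 in old HSC. Oasl2, of the oligoadenylate synthetase-like family, had the largest difference of these. It read 9.34, 9.44, 9.28, 9.10 and 9.33 in young HSC and 6.59, 7.15, 6.64 and 7.56 in young GMP. In old mice it read 8.82, 8.35 and 9.26 in HSC and 7.26, 6.54 and 7.22 in GMP. All HSC arrays lay above all GMP arrays. HSC stood above GMP by 2.31 ± 0.20 log2 (SE, 4.97-fold, adjusted p = 4.182e-08) in young mice and 1.80 ± 0.25 log2 (SE, 3.49-fold, adjusted p = 1.762e-05) in old mice (limma). By contrast the family members Oas2 (0.26 in young, 0.29 in old mice), Oas3 (0.25 and 0.32) and Oasl1 (-0.14 and 0.00) did not pass the test. Whether they differ from Oasl2 was not tested.

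Among the tetratricopeptide proteins that bind foreign RNA ends, Ifit1 read 8.29, 8.09, 7.77, 7.89 and 7.85 in young HSC and 6.08, 6.32, 6.32 and 6.10 in young GMP. Its old arrays read 8.22, 6.94 and 8.13 in HSC and 6.11, 6.03 and 5.94 in GMP. Every HSC array again exceeded every GMP array. The HSC minus GMP difference was 1.77 ± 0.19 log2 (SE, 3.41-fold, adjusted p = 7.054e-07) in young mice and 1.74 ± 0.23 log2 (SE, 3.34-fold, adjusted p = 1.418e-05) in old mice (limma). Ifit3, which stabilises that binding in human cells, read 6.58, 7.19, 6.83, 7.05 and 7.52 in young HSC and 5.73, 5.55, 5.56 and 5.80 in young GMP. It read 6.41, 6.34 and 7.19 in old HSC and 5.56, 5.56 and 5.85 in old GMP. The groups were apart at each age, and the GMP arrays were dim. Its level in HSC exceeded that in GMP by 1.38 ± 0.18 log2 (SE, 2.60-fold, adjusted p = 6.434e-06) in young mice and 0.99 ± 0.22 log2 (SE, 1.99-fold, adjusted p = 0.001956) in old mice (limma). Ifit2 differed by 0.43 ± 0.14 log2 (SE, 1.34-fold, adjusted p = 0.02731) in young and 0.19 ± 0.17 log2 (SE, 1.14-fold, adjusted p = 0.5182) in old mice (limma). Arrays give no detection call here. Ifit3 lay below its array's lower quartile on every GMP array at both ages, as did Mx1 and Mx2, and Ifit1 and Rsad2 did so on every old GMP array; those quartiles ran from 6.14 to 6.38.

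Rsad2 encodes viperin, which makes a chain-terminating nucleotide, and its differences had small errors. It read 7.58, 7.68, 7.65, 7.31 and 7.74 in young HSC and 6.18, 5.95, 6.01 and 6.27 in young GMP. It read 6.90, 6.99 and 7.08 in old HSC and 6.25, 6.05 and 5.99 in old GMP. The HSC arrays were all above the GMP arrays, and the young HSC arrays all above the old. HSC stood above GMP by 1.49 ± 0.11 log2 (SE, 2.81-fold, adjusted p = 3.396e-09) in young mice and 0.89 ± 0.13 log2 (SE, 1.86-fold, adjusted p = 4.821e-05) in old mice (limma). Cmpk2, its neighbour and a nucleotide kinase, differed by 0.11 and 0.16 and did not pass the test. Isg20, an exonuclease of single-stranded RNA, read 9.20, 9.72, 9.45, 8.63 and 9.24 in young HSC and 7.59, 7.84, 7.64 and 8.17 in young GMP. It read 8.73, 8.43 and 8.55 in old HSC and 7.58, 7.54 and 7.81 in old GMP. HSC and GMP were apart at each age. HSC stood above GMP by 1.44 ± 0.17 log2 (SE, 2.71-fold, adjusted p = 2.319e-06) in young mice and 0.93 ± 0.21 log2 (SE, 1.90-fold, adjusted p = 0.002481) in old mice (limma). Adar, the RNA-editing deaminase, differed by 0.26 and 0.16 and was not called.

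All 3 measured PARP family members were higher in HSC at both ages. Parp12, a mono-ADP-ribosyltransferase with zinc fingers, read 9.29, 9.45, 9.13, 8.996 and 9.46 in young HSC and 7.14, 7.47, 7.42 and 7.29 in young GMP. It read 9.12, 8.31 and 9.13 in old HSC and 7.27, 6.96 and 7.59 in old GMP. No HSC array fell to the level of a GMP array. Its level in HSC exceeded that in GMP by 1.93 ± 0.16 log2 (SE, 3.82-fold, adjusted p = 2.88e-08) in young mice and 1.58 ± 0.20 log2 (SE, 2.99-fold, adjusted p = 7.553e-06) in old mice (limma). Parp9 was higher by 0.97 and 0.66, and Parp14 by 0.84 and 0.82. Dtx3l, the ubiquitin ligase that pairs with Parp9, differed by 0.43 and 0.33 and was not called. In the same ubiquitin and ISG15 group Herc6, a ligase for ISG15 in mice, was higher by 0.80 and 0.88. Usp18, which removes ISG15 and damps the receptor, was higher by 0.73 in young mice and differed by 0.47 in old mice (limma adjusted p = 0.05964). Trim25, the ligase that modifies RIG-I, differed by 0.21 and 0.08 and was not called.

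The interferon-induced GTPases held the single member that was lower in HSC. Gbp3, a guanylate-binding protein, read 8.31, 8.25, 8.49, 7.73 and 8.43 in young HSC and 8.98, 8.69, 8.93 and 8.74 in young GMP. It read 8.22, 7.74 and 8.42 in old HSC and 8.88, 8.85 and 9.02 in old GMP. The GMP arrays were all above the HSC arrays of the same age. The difference, HSC minus GMP, was -0.60 ± 0.15 log2 (SE, 1.51-fold, adjusted p = 0.005382) in young mice and -0.79 ± 0.18 log2 (SE, 1.73-fold, adjusted p = 0.003429) in old mice (limma). Irgm1, an immunity-related GTPase needed for HSC maintenance in mice, was higher in HSC by 1.36 and 0.82. Mx2 was higher by 0.80 and 0.59, while Mx1 differed by 0.16 and 0.29 and was not called.

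The remaining members included that with the largest difference. Rtp4, a receptor-transporting protein that is strongly induced by interferon, read 10.05, 10.04, 10.24, 9.55 and 9.98 in young HSC and 6.50, 6.95, 6.54 and 7.17 in young GMP. In old mice it read 9.45, 8.79 and 10.43 in HSC and 6.65, 6.69 and 7.49 in GMP. All HSC arrays stood above all GMP arrays. The HSC minus GMP difference was 3.18 ± 0.25 log2 (SE, 9.06-fold, adjusted p = 9.209e-09) in young mice and 2.61 ± 0.31 log2 (SE, 6.12-fold, adjusted p = 2.834e-06) in old mice (limma). Xaf1, an antagonist of the apoptosis inhibitor XIAP, read 8.49, 8.53, 8.49, 8.29 and 8.26 in young HSC and 7.01, 7.05, 6.66 and 6.86 in young GMP. It read 8.31, 7.80 and 8.34 in old HSC and 7.07, 6.97 and 7.27 in old GMP. The cell types were apart at each age. Its level in HSC exceeded that in GMP by 1.52 ± 0.13 log2 (SE, 2.86-fold, adjusted p = 1.828e-08) in young mice and 1.05 ± 0.15 log2 (SE, 2.07-fold, adjusted p = 3.684e-05) in old mice (limma). Bst2, the tetherin that holds budding virus at the membrane, Ifi35 and Ifi27l2a were not called and differed by -0.08, 0.23 and -0.05 in young mice.

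**Figure D4:**
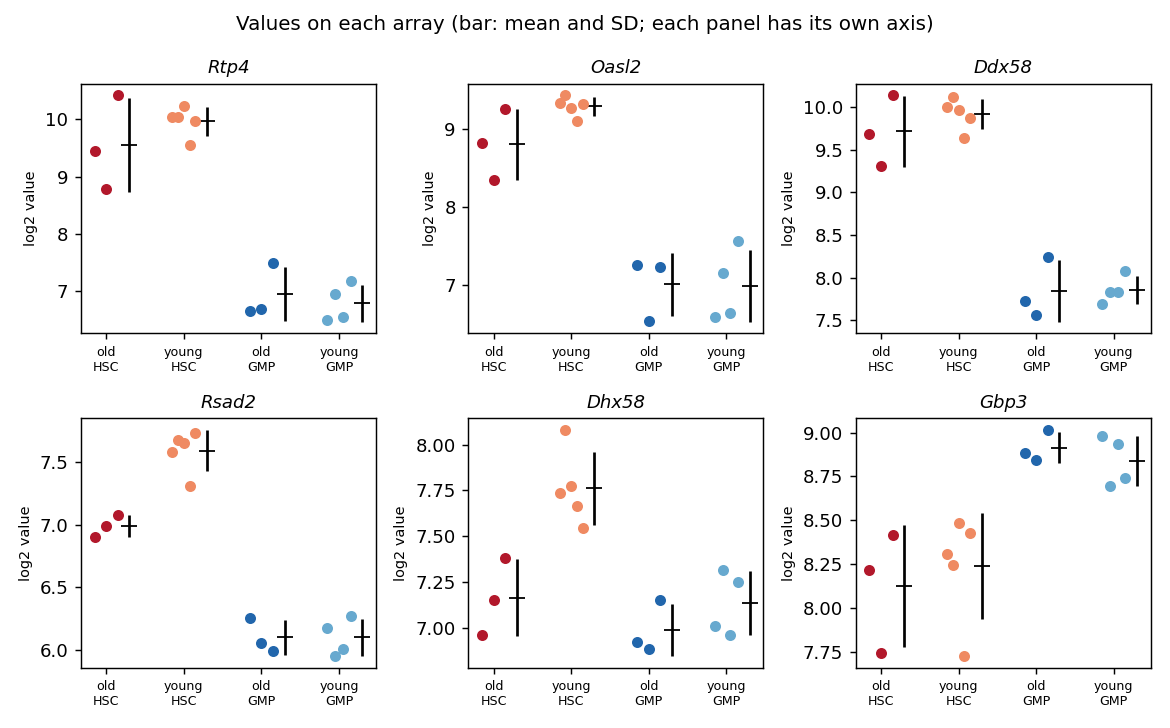
Log2 values of Rtp4, Oasl2, Ddx58, Rsad2, Dhx58 and Gbp3 on each array by group, with the group mean and SD as a bar and an axis of its own for each gene. Rtp4 reads 8.79 or more on every HSC array and 7.49 or less on every GMP array; Dhx58 in old HSC overlaps old GMP; Gbp3 is lower in HSC.

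Genes of the same pathway outside the list were read from lists of names, also chosen with earlier results of these data known. Over all genes, 13.6% were higher and 10.9% lower in young HSC than in young GMP. In old mice 9.25% were higher and 13% lower. Of 15 measured receptor and signalling genes, 5 were higher and 3 lower in young HSC, and 4 were higher and 4 lower in old HSC. Irf2, a repressor and competitor at the response element, was higher in HSC by 1.48 ± 0.11 log2 (SE, 2.78-fold, adjusted p = 4.191e-09) in young mice and 1.01 in old mice (limma). Both chains of the interferon gamma receptor were lower in HSC, with differences for Ifngr1 of -1.23 in young and -1.54 in old mice and for Ifngr2 of -1.14 and -1.42. Irf8, a factor of myeloid fate, was lower, with differences of -2.18 and -2.13. Of 30 other interferon-induced genes, 21 were higher and 3 lower in young HSC, and 15 were higher and 3 lower in old HSC. They included Iigp1, an immunity-related GTPase, with 3.71 ± 0.23 (SE) in young and 3.30 ± 0.28 in old mice. Gbp4 (2.78 and 2.63) and Samd9l (2.54 and 2.32) were also higher. Iigp1 read from 5.53 to 5.90 and Gbp4 from 4.87 to 5.45 over all GMP arrays, whose lower quartiles ran from 6.14 to 6.38, so the sizes of both differences rest on dim GMP values. Ifitm1 was higher by 2.31 in young mice, and in old mice it averaged 12.18 in HSC against 10.34 in GMP. Ms4a4c was lower in HSC at both ages, with differences of -1.50 in young and -2.36 in old mice. It was dim in HSC, from 5.39 to 5.62 on young and from 5.05 to 5.20 on old arrays. The lower quartiles of the HSC arrays ran from 6.10 to 6.43.

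Of 11 sensing adaptors and kinases, Samhd1, a nucleotide hydrolase (0.77), and Tlr3, a receptor of double-stranded RNA (0.41), were higher in young HSC. Trex1, a DNA exonuclease, was lower there (-0.29). The share called was near the 24.6% of all genes. In old mice 0 were called, beside 22.2% of all genes (limma, Tlr3 at an unadjusted p of 0.0466). Tlr3 was dim, from 5.51 to 5.92 in young HSC and from 5.24 to 5.40 in young GMP. The lower quartiles of those arrays ran from 6.10 to 6.38. Of 7 measured interferon genes themselves, Ifnb1 (-0.57) and Ifna2 (-0.32) were lower in young HSC, beside 10.9% of all genes. In old mice 0 were called, with the smallest p at Ifna5 (0.20, unadjusted p = 0.314 in limma). Markers of plasmacytoid dendritic cells, a main source of type I interferon, were called in 1 of 5 genes at each age, and their mean ran from 7.15 to 7.64 over young HSC arrays and from 7.22 to 7.57 over young GMP arrays. In old mice their mean ran from 7.55 to 7.73 in HSC and from 7.19 to 7.43 in GMP, without overlap, and all 5 lay above 0 with a median difference of 0.28. Tcf4 was higher in HSC by 0.55 in young and 0.79 in old mice. The part of other cells in the differences was not tested.

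The second comparison set old against young HSC. Of the 36 members 0 were higher and 5 were lower in old HSC (limma), where 11.5% of all genes were called (2.25% higher, 9.22% lower), so the share of members lower was near the background. Another 5 members had an unadjusted p under 0.05, 10 in all, beside 6054 of 19296 genes. The median difference was -0.21, beside 0.03 over all genes, and 29 members lay below 0, beside 46.6% of all genes. Groups did not overlap for 4 members that were lower, beside 7.69% of all genes, and for 0 that were higher, beside 5.1%. By role, 3 of 11 RNA-directed effectors, 1 of 5 sensors and 1 of 4 transcription factors were lower, and no test set the roles against each other.

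Rsad2 had the smallest p. It averaged 6.99 ± 0.09 (SD, n = 3) in old and 7.59 ± 0.17 (n = 5) in young HSC, and every old array lay below every young array. The level fell by 0.60 ± 0.12 log2 (SE, 1.52-fold, adjusted p = 0.006388) in limma. Isg20 averaged 8.57 ± 0.15 in old and 9.25 ± 0.40 in young HSC and fell by 0.68 ± 0.19 log2 (SE, 1.60-fold, adjusted p = 0.02715), with overlapping arrays. Dhx58 averaged 7.16 ± 0.21 against 7.76 ± 0.20 and fell by 0.60 ± 0.14 log2 (SE, 1.51-fold, adjusted p = 0.01253), with the groups apart. Irf9 averaged 8.51 ± 0.17 against 9.02 ± 0.23 and fell by 0.51 ± 0.15 log2 (SE, 1.42-fold, adjusted p = 0.0333), also apart. Ifit2, which read 8.66, 7.997 and 8.63 in old and 9.02, 9.05, 8.95, 8.63 and 8.96 in young HSC, fell by 0.49 ± 0.15 log2 (SE, 1.41-fold, adjusted p = 0.0393), and young HSC replicate 4 fell among the old arrays.

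The other transcription factors did not pass the test. Irf1 read 8.71, 8.43 and 8.85 in old and 9.06, 8.997, 9.002, 8.75 and 8.95 in young HSC, a difference of -0.29 ± 0.11 (SE, limma adjusted p = 0.1006). Stat2 read 8.22, 7.93 and 8.38 in old and 8.44, 8.24, 8.08, 8.16 and 8.50 in young HSC, a difference of -0.11 ± 0.14 (limma adjusted p = 0.6137). Irf7 read 7.73, 7.46 and 7.80 and 7.55, 7.86, 7.62, 7.43 and 7.59, a difference of 0.05 ± 0.13 (limma adjusted p = 0.7917). The old and young arrays of all 3 overlapped. The members with the largest HSC minus GMP differences were not called with age: Rtp4 differed by -0.41 ± 0.27 (SE), Oasl2 by -0.49 ± 0.22, Parp12 by -0.41 ± 0.18, Ddx58 by -0.20 ± 0.17 and Ifit1 by -0.21 ± 0.21. The largest differences above 0, of Herc6 at 0.25 and Mx1 at 0.23, did not pass the test either.

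**Figure D5:**
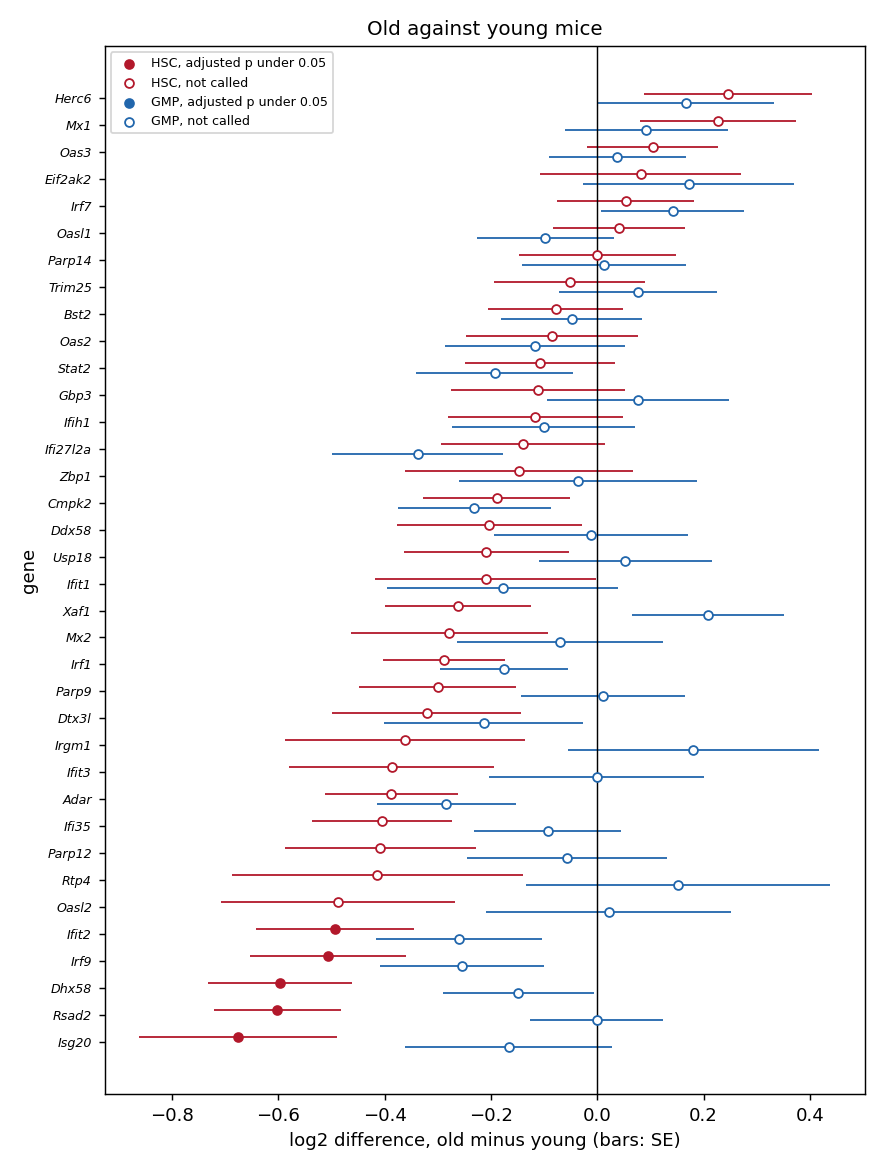
Log2 difference, old minus young, for each of the 36 genes (rows, ordered by the value in HSC) in HSC and GMP, with the SE as a bar; filled points have a limma adjusted p under 0.05. In HSC 29 points lie left of 0 and 5 are filled, from Isg20 at -0.68 to Ifit2 at -0.49; in GMP no point is filled.

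The count of 5 rested on few arrays. It was 1 without old HSC replicate 1 or without replicate 2, where 2.21% and 1.79% of all genes were called. It was 3 without young HSC replicate 1 or 5 (7.7% and 7.05% of all genes) and 2 without young HSC replicate 2 or 3 (4.7% and 4.73%). It was 11 without old HSC replicate 3 (16.7%) or without young HSC replicate 4 (27.5%). The share of all genes called moved in the same direction as the members' count in each of these fits. Young HSC replicate 4 was also the young HSC array with the highest Xist, 11.5, and the lowest mean of the Y-linked genes, 4.94 against 7.12 to 8.80 on the others. With each array's interquartile range added to the fit the count was 0, where 0.544% of all genes were called. The median difference over the members ran from -0.37 to -0.05 over all settings. Rsad2 kept its call whichever array was left out, and Dhx58 lost it without old HSC replicate 1 or 2. Isg20 lost it without either of these or young HSC replicate 2 or 3, and Irf9 and Ifit2 without either of these or young HSC replicate 1, 2, 3 or 5. Differences with age in HSC also followed brightness. In 10 equal groups of genes by mean level, the median difference ran from 0.17 in group 3 to -0.31 in group 9, and 17 of the 36 members lay in groups 8 and 9. Set against the median of its own brightness group, 25 of 36 members were lower in old HSC, and the median of the 36 relative values was -0.19. The same reading for HSC against GMP put 33 of 36 members above their group's median at each age. The part of array spread and brightness in the age differences was not tested further.

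Related genes were read in the same comparison, where 9.22% of all genes were lower and 2.25% higher, and the counts of lower genes in these lists were near that background. Of 15 receptor and signalling genes 2 were lower in old HSC: Ifnar2, a chain of the type I receptor, with -0.60 ± 0.17 log2 (SE, 1.52-fold, adjusted p = 0.02773) and Irf2 with -0.46 ± 0.12 log2 (SE, 1.37-fold, adjusted p = 0.02268) in limma. Of 30 other interferon-induced genes 3 were lower: Tap1, a peptide transporter for antigen presentation, with -0.76 ± 0.13 log2 (SE, 1.69-fold, adjusted p = 0.003412), Psmb9, an immunoproteasome subunit, with -0.59, and Pml, of nuclear bodies, with -0.37. Of 11 sensing adaptors 0 were called (limma, 2 at an unadjusted p under 0.05), with the smallest p at Samhd1 (-0.45). Of 7 interferon genes 4 were higher in old HSC: Ifna5 by 0.58 ± 0.17 log2 (SE, 1.499-fold, adjusted p = 0.03523), Ifna4 by 0.44, Ifna2 by 0.42 and Ifnb1 by 0.42 (limma). With the interquartile range as a covariate 0 of the 4 calls held, and after quantile normalization that of Ifna5 did. Ifna4 and Ifnb1 were dim, from 5.18 to 6.08 and from 5.87 to 6.59 over the HSC arrays, whose lower quartiles ran from 6.10 to 6.43. The median age difference in HSC of all genes in the same brightness group was 0.155 for Ifna4, 0.166 for Ifnb1 and 0.133 for Ifna2. For Ifna5 it was -0.305. The plasmacytoid dendritic list, whose mean ran from 7.55 to 7.73 in old and from 7.15 to 7.64 in young HSC, had 1 of 5 genes called, Ly6d, higher by 0.46. Of 6 T and NK cell markers Klrb1c was higher by 1.15 ± 0.25 log2 (SE, 2.22-fold, limma adjusted p = 0.01088) and Nkg7 was lower, with -0.61 (limma adjusted p = 0.04272). The mean of these 6 ran from 6.58 to 6.69 in old and from 6.17 to 6.45 in young HSC. Of 3 erythroid markers Slc4a1 was higher by 0.39 (limma adjusted p = 0.04117). Of 7 macrophage, 6 mature neutrophil and 4 B cell markers 0 were called in limma, with 2, 0 and 0 at an unadjusted p under 0.05. The part of other cells in the age differences was not tested.

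In GMP 0 of 36 members were called with age, where 0% of all genes were (limma; 2 members and 870 genes had an unadjusted p under 0.05). The median difference was -0.04, beside -0.01 over all genes, and 22 members lay below 0, beside 51.9% of all genes. The 2 members with the smallest p were Adar and Ifi27l2a. Adar read 8.11, 7.78 and 8.14 in old and 8.17, 8.32, 8.17 and 8.51 in young GMP, a difference of -0.28 ± 0.13 (SE, limma adjusted p = 1). Ifi27l2a read 7.17, 7.04 and 6.97 in old and 7.25, 7.42, 7.20 and 7.71 in young GMP, a difference of -0.34 ± 0.16 (limma adjusted p = 1). The old arrays of both lay below the young, and 3.72% of all genes did so. Of the pathway lists 0 genes were called in limma. The smallest p was at Irf3 among receptors and signalling (-0.33), Trex1 among adaptors (-0.24), Ifnb1 among interferon genes (-0.26) and Tap1 among other induced genes (-0.46), with limma adjusted p from 0.8811 to 1.

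The age difference in HSC was then set against that in GMP. Of 36 members 0 passed the test, where 0.0933% of all genes did (limma; 3 members had an unadjusted p under 0.05). The median over the members was -0.12. The smallest p belonged to Rsad2, which differed with age by -0.60 in HSC and 0.00 ± 0.12 (SE) in GMP, a difference between them of -0.60 ± 0.17 (limma adjusted p = 0.2538). Its GMP values were dim, below the lower quartile on all 3 old and on 3 of 4 young GMP arrays, and the part of this in the contrast was not tested. Without young HSC replicate 4 its limma adjusted p was 0.04817, and 0.995% of all genes were called. Xaf1 came next, with -0.26 in HSC, 0.21 in GMP and a difference of -0.47 ± 0.20 (limma adjusted p = 0.409). In the pathway lists the smallest p belonged to Irf2 (-0.46), Nlrc5 (0.38), Ifnb1 (0.68) and Ms4a4c (-0.86), none past the threshold (limma adjusted p from 0.2231 to 0.4796). The lower levels of 5 members in old HSC were therefore not shown to differ from the change in GMP.

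Across the comparisons the members fell into 6 patterns. Of the 36, 17 were higher in HSC than GMP at both ages with no call for age. Irf9, Isg20 and Rsad2 were higher in HSC at both ages and lower in old HSC. Dhx58 and Ifit2 were lower in old HSC and were called higher in HSC than GMP in young but not in old mice. Usp18 had that pattern with no call for age. For none of these 3 did the difference between the ages pass its test (limma, smallest adjusted p of all members 0.2538). Gbp3 was lower in HSC at both ages, and 12 were called nowhere. The age comparison in HSC shares its arrays with both comparisons of HSC with GMP, so these patterns are counts of calls and not independent readings.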

How the data were processed

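The values were log2 expression levels of 23309 probe sets on 15 arrays, deposited by the authors as a series value table. RMA, affy and limma are named, with no version, in the submitters' processing notes, so background correction, normalization and summary over probes were done upstream. A filter on probe sets was not given in the sources used here, and the deposited log2 scale was read from the values, which ran from 2.285 to 13.72 with 0 missing. Of the probe sets, 20728 had 1 gene symbol, 1174 several and 1407 none, and only the first kind was used. For the 804 genes with more than 1, the brightest over all arrays was taken, leaving 19296 genes.

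With limma 3.58.1 in R 4.3.3, the means of the 4 groups were estimated from the 15 arrays together, with empirical Bayes moderation. The Benjamini-Hochberg adjustment covered all genes, and an adjusted p under 0.05 was a call. The script was tested on simulated data. The number of arrays limits the precision. No set was tested: counts and medians stand beside those of all genes. Genes named were up to 10 called members by size per comparison, or the 2 with the smallest p, the 4 transcription factors, Gbp3 as the single member called lower in HSC (named after its values were seen), and up to 4 called genes of each pathway list. The members and lists were chosen with earlier results of these data known.

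Replicate numbers of young HSC and young GMP paired arrays, with correlations of same-numbered deviations from 0.161 to 0.525. Those of old HSC and old GMP were 0.05, 0.23 and 0.422, and those of old and young arrays ran from -0.239 to 0.146. Neither set exceeded 0.1 throughout, so these were not taken as pairs. The main fit treated all arrays as independent, young ones included, and fits with a replicate block are given below. No array batch is given in the labels.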

Additional observations from a re-analysis of the deposited data

Results flagged for a closer look

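Arrays far from the rest of their group were looked for in the 72 groups of 4 or 5 arrays that the 36 members gave, by Dixon's test at the 95% level, which flags about 1 in 20 groups by chance. It found 4: Irf9 in young GMP replicate 3 read 7.73, below the next array at 8.13. Ifit2 in young HSC replicate 4 read 8.63, below 8.95. Dtx3l on the same array read 8.79, below 9.41. Mx1 on that array read 6.34, above 5.80. Young HSC replicate 4 had the narrowest interquartile range of its group, 2.21, and was the lowest young HSC array for 18 of 36 members. It also had the highest Xist of its group, 11.5, and the lowest mean of the Y-linked genes, 4.94. What set these values apart was not tested.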

How the results depend on the processing

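Between HSC and GMP the count of members called ran from 23 to 26 in young mice and from 18 to 22 in old mice when single arrays were left out, and from 23 to 27 and from 18 to 26 over all settings. Array weights gave 27 and 26, where 35.1% and 38.8% of all genes were called. The median difference ran from 0.64 to 0.73 and from 0.50 to 0.66 over all settings. With the replicate block, whose numbers pair young HSC with young GMP, 25 members were called in young mice. Old against young HSC moved most. The 5 calls became 2 after quantile normalization, 19 with array weights (17 lower, 2 higher), 0 with each array's interquartile range in the fit, 11 with the Y-linked level as a covariate, 11 with a replicate block, 12 without replicate 4 of both young groups and 2 when old and young HSC were fitted alone. In the same order the share of all genes called went from 11.5% to 6.76%, 46.5%, 0.544%, 34.1%, 32.5%, 32% and 4.51%. A replicate block in a fit of those groups alone, added after seeing the data, gave 10 (23% of all genes). Both blocks join old and young HSC by numbers that were not taken as pairs, and a random replicate block within age, also added, gave 6 (12.4%). Leaving out single arrays gave 1 to 11. Rsad2 kept its call under 26 of 27 settings, Dhx58 under 24, Isg20 under 20, and Irf9 and Ifit2 under 18. The 27 include fits that left out a GMP array, and none of these calls was lost there. In any comparison, leaving out an array of another group keeps the difference and moves only the shared spread and the adjustment. In GMP the count of members with age was 0 whichever array was left out. The difference between the age effects went from 0 to 4 with array weights, where 12.5% of all genes were called, to 1 without replicate 4 of both young groups, and from 0 to 1 when single arrays were left out. No result changed direction past the threshold. The cause of these shifts was not tested.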
